A study of Homo sapiens with 48 samples.

Results

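The 500 largest stretches of basal distal H3K27 acetylation in L3.6pl cells, a human pancreatic ductal adenocarcinoma line, were examined. They were chosen by the vehicle H3K27ac list alone: its peaks on chromosomes 1 to 22 and X that lay more than 2.5 kb from a protein-coding transcript start were stitched wherever the gap was 12.5 kb or less, and the 500 domains with the largest summed peak length were kept out of 26434. The series holds 48 ChIP-seq samples in 16 groups of 3, which reached these data as 1 peak list of merged replicates per group. The antibodies were RELA and RELB, each in cells treated with vehicle (PBS), TNFα for 30 min or 6 h, or TWEAK for 30 min or 6 h, H3K27ac in the same 5 conditions, and FOSL1 in vehicle-treated cells. All lists come from 1 cell line with no genetic change named in the labels. With 1 list per condition, no difference between treatments could be tested, and the exact tests below compare regions within a list and cover counting error only. The sequencing depth behind a list is unknown. The line's label was met at the chromatin: 10 of 10 ductal and epithelial marker genes had a vehicle H3K27ac peak within 1 kb of a start, against 1 of 13 leukocyte, 4 of 10 fibroblast, 2 of 8 endothelial and 1 of 16 acinar and endocrine markers, and 65.6% of all protein-coding genes.

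H3K27ac marks active enhancers and promoters, and long clusters of acetylated enhancers, often called super-enhancers, are known to lie near genes that set a cell's identity. FOSL1 (FRA1) is a subunit of AP-1, a transcription factor that binds enhancers in epithelial and RAS-driven tumour cells. RELA is the main transactivating subunit of canonical NF-κB, released by TNFα within minutes, and RELB is the partner of the noncanonical pathway that TWEAK switches on more slowly through processing of p100.

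The domains can be read at the level of their bound sequence. For 12 of the domains named first, those among the largest or with the most RELA or RELB summits, the 200 bp around the strongest RELA summit at 30 min TNFα within a distal vehicle-acetylated peak and outside repeated sequence were taken from hg38 (the FOSL1 summit where no RELA summit met this). A stronger RELA summit can lie elsewhere in the span, as in the BIRC3 domain, with a fold enrichment of 13.5 against 4.73 in the window. Of the 12 windows, 10 were intergenic and 2 lay in introns, 3 held a strict NF-κB consensus, 3 held the AP-1 motif TGANTCA and 7 held neither motif. The 7 shown are a FOSL1 site in the largest domain of unique sequence among the 12, 3 windows with an NF-κB match, 3 with an AP-1 match (1 window has both) and the window with the highest RELA fold enrichment. They are on the plus strand, and capitals mark the AP-1 motif or the NF-κB consensus, in its strict or looser form, on either strand.
CAMK1G-side domain (FOSL1 vehicle, chr1:209398676-209398875): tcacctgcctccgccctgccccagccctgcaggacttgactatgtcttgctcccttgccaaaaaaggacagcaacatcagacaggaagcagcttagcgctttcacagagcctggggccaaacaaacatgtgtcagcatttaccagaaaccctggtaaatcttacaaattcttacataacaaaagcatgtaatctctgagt
MYEOV domain (RELA 30 min TNFα, chr11:69377696-69377895): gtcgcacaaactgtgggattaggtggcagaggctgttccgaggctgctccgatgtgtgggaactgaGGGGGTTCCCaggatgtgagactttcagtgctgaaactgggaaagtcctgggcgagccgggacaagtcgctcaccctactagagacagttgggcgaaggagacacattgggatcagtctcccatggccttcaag
BLID-side domain (RELA 30 min TNFα, chr11:122155787-122155986): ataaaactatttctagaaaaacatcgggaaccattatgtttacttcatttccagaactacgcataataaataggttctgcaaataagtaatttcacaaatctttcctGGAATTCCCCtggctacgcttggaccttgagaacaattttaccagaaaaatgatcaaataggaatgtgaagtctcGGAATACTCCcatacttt
BRME1 and NANOS3 domain (RELA 30 min TNFα, chr19:13861806-13862005): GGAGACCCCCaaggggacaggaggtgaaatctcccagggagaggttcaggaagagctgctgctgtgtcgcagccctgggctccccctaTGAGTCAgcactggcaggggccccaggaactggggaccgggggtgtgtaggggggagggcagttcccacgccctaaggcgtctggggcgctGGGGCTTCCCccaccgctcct
DLGAP1 domain (RELA 30 min TNFα, chr18:3624882-3625081): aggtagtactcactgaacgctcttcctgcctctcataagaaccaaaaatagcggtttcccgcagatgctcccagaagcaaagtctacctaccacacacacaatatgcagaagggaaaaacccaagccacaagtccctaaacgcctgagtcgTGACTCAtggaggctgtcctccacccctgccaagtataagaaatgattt
SERP2-side domain (RELA 30 min TNFα, chr13:44301402-44301601): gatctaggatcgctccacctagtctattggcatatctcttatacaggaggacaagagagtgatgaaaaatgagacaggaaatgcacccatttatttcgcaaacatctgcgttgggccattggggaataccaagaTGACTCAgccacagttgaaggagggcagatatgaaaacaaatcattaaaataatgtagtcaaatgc
RAD51B domain (RELA 30 min TNFα, chr14:68563584-68563783): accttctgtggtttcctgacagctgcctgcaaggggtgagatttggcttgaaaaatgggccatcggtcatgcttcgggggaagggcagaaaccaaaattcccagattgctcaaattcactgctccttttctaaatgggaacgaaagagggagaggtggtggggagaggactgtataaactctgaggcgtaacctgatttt
The window of the DLGAP1 domain lies in an intron of DLGAP1, a synaptic scaffold gene, and that of the RAD51B domain in an intron of RAD51B, a homologous recombination gene. The other 5 are intergenic, and the nearest protein-coding starts are those of CAMK1G at 185 kb, MYEOV at 83.6 kb, BLID at 39.7 kb, NANOS3 at 15.2 kb and SERP2 at 72.3 kb. The RAD51B window carried the highest RELA fold enrichment of the 7, 23.3, without a match to either motif, against 16.2 in the NANOS3 window, 14.9 in the SERP2 window, 12 in the MYEOV window, 11 in the DLGAP1 window and 7.87 in the BLID window. The FOSL1 site of the CAMK1G-side domain had a FOSL1 fold enrichment of 5.69 and held neither motif.

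The domains were few but held much of the mark. They made up 1.89% of all distal domains, 8.29% of the distal peaks (3610 of 43545) and 11% of the distal acetylated length, 3.8 of 34.7 Mb. Their summed peak length ran from 5.27 to 30.9 kb with a median of 6.79 kb, over 2 to 30 peaks (median 7) and a span of 9.82 to 138 kb (median 34.7 kb). At the limit of the choice, the last 2 domains kept held 5272 bp each, and the first 2 left out held 5270 and 5268 bp, so the limit fell in an unbroken range of sizes. Since size chose the domains, these values are a description. Acetylated peaks covered 20.2% of the domains' span, and the median peak was 906 bp long against 607 bp in the other domains. The median fold enrichment of a peak was 2.49 in the 500 domains and 2.97 in the others, so the largest domains were long rather than high in the mark. They lay on all 23 chromosomes examined, from 6 on chromosome 21 to 50 on chromosome 2.

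**Figure D1:**
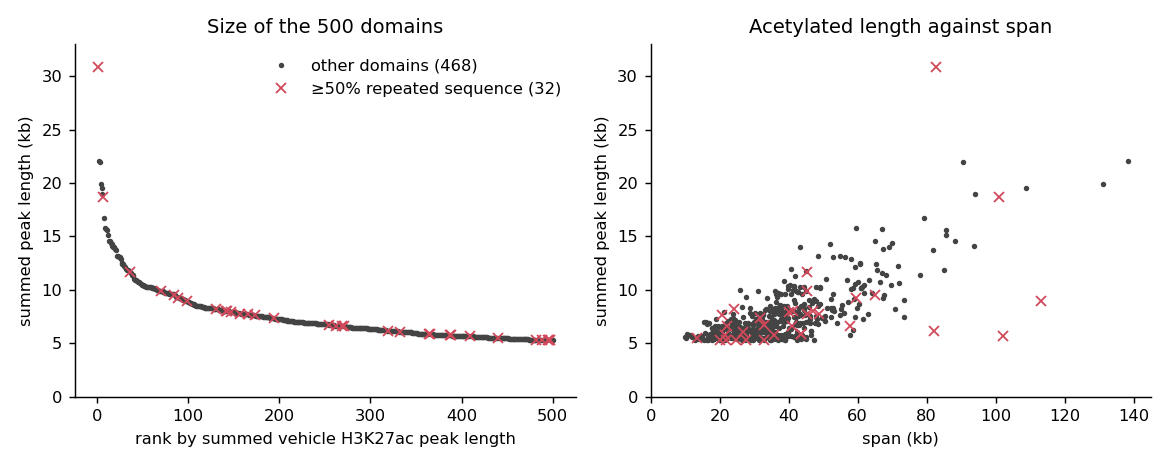
Summed vehicle H3K27ac peak length of each of the 500 domains against its rank (left) and against its span in kb (right); each point is 1 domain, and crosses are the 32 domains with at least 50% of their acetylated length in repeated sequence. Lengths fall from 30.9 kb to 5.27 kb with no step at the limit, and the largest domain is one of repeated sequence.

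Part of the set is repeated DNA, which bears on every count that follows. A peak was called repeated where its window matched itself after a shift (tandem repeat) or where at least 3 of 5 sampled 32-base words occurred more than 1 time in the genome. By this measure 32 of the 500 domains (6.40%) had at least 50% of their acetylated length in repeated sequence, against 14.5% of the other domains. The largest domain of all, chr1:143184653-143267467 with 30.9 kb in 30 peaks, was repeated throughout, and no protein-coding start lay within 638 kb of it. It held 76 RELA summits in vehicle, 68 after 30 min and 76 after 6 h TNFα, 72 and 85 after TWEAK, and 71 to 77 RELB summits in each of the 5 RELB lists, whatever the treatment. In all, 7 domains held at least 5 summits in each of the 11 factor lists, and 7 of these 7 were repeated sequence. The lists themselves differed in this respect: 17.8% of FOSL1 peaks lay in repeated sequence, 32.4% of RELA peaks at 30 min TNFα and 55.1% at 6 h, 64.3% of RELB peaks at 6 h TWEAK, and 79.5% to 98.8% of the other 7 RELA and RELB lists. Values are therefore given over all summits and over those outside repeated sequence, the latter chosen after seeing the data.

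FOSL1, the AP-1 subunit mapped in vehicle, was in almost every domain. Outside repeated sequence, 473 of the 500 domains (94.6%, 95% exact binomial interval 92.2 to 96.4) had at least 1 FOSL1 summit in their span, where all 26434 domains gave 49.5% and the next 500 domains in order of size gave 95.6%. The median was 5.00 summits per domain and the highest 18, and 264 domains had at least 5. The span of a large domain offers more room for a summit, so the density per acetylated length is the comparison to make. It was 493 summits per Mb in the 500 domains and 537 per Mb in the other domains, a ratio of 0.918 (95% interval 0.875 to 0.963, exact conditional binomial test, two-sided, p = 4.03e-04, adjusted over the 11 factor lists 0.00222). Outside repeated sequence the densities were 461 and 474 per Mb, and the ratio of 0.972 (0.922 to 1.02, exact p = 0.293, adjusted 0.359) had an interval that includes 1. The density was higher in the 500 domains on 10 of 23 chromosomes. Peak length was not matched here, and within the shorter peaks FOSL1 was less dense in the 500 domains, as given below. Over the whole span the ratio outside repeated sequence was 0.655 (0.628 to 0.682, exact p = 1.94e-97). Acetylated peaks fill 20.2% of the span of the 500 domains and 33.3% of that of the others. FOSL1 summits of the domains had a median fold enrichment of 5.35 against 6.19 elsewhere, and counting only those of at least 5 gave a density ratio of 0.822 outside repeated sequence (0.766 to 0.881, exact p = 1.22e-08).

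RELA after 30 min TNFα was denser in the acetylated peaks of the large domains than in those of the rest. Over all summits the density was 127 per Mb in the 500 domains and 102 per Mb in the others, a ratio of 1.25 (1.14 to 1.38, exact p = 5.94e-06, adjusted 6.53e-05). Outside repeated sequence it was 93.6 against 60.5 per Mb (323 against 1655 summits), a ratio of 1.55 (1.37 to 1.74, exact p = 8.07e-12, adjusted 8.88e-11), and it was higher on 22 of 23 chromosomes. At 6 h TNFα the ratio was 1.19 over all summits (1.06 to 1.33, exact p = 0.00366, adjusted 0.0134) and 1.65 outside repeated sequence (50.4 against 30.5 per Mb, 1.40 to 1.95, exact p = 1.03e-08, adjusted 5.68e-08). The direction over all summits depended on what was counted: over the whole span the ratios were 0.959 (0.886 to 1.04) at 30 min and 0.881 (0.801 to 0.969) at 6 h, and with a fold enrichment of at least 5 they were 0.991 (0.872 to 1.12) and 0.789 (0.667 to 0.928). Outside repeated sequence the same 4 ratios were 1.15, 1.20, 1.45 and 1.46. Summits close to each other are not independent, so these exact tests, two-sided here and below, understate the error.

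The other RELA lists were sparse once repeats were set aside. After 30 min TWEAK, 41 summits lay in the domains' acetylated peaks, 11.9 per Mb against 5.99 elsewhere (ratio 1.98, 1.37 to 2.81, exact p = 2.22e-04, adjusted 8.12e-04). Vehicle gave 23 summits with a ratio of 1.96 (1.19 to 3.12, exact p = 0.00715, adjusted 0.0157), and 6 h TWEAK 22 summits with a ratio of 1.96 (1.17 to 3.15, exact p = 0.00943, adjusted 0.0173). Over all summits these 3 ratios were 1.16, 1.08 and 1.05, and none of the 3 passed the test (adjusted p 0.173, 0.535 and 0.673).

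RELB depended more on the repeats. At 6 h TWEAK, the condition with the most RELB summits outside repeated sequence, the density over all summits was 58.5 against 54.6 per Mb, a ratio of 1.07 (0.927 to 1.23, exact p = 0.340, adjusted 0.535). Outside repeated sequence it was 24.9 against 16.8 per Mb (86 against 459 summits), a ratio of 1.49 (1.17 to 1.87, exact p = 0.00135, adjusted 0.00372). At 6 h TNFα the latter ratio was 1.69 (1.02 to 2.70, exact p = 0.0320, adjusted 0.0440) on 22 summits, and in vehicle 2.22 (1.13 to 4.08, exact p = 0.0148, adjusted 0.0233) on 14. At 30 min the domains' acetylated peaks held 1 RELB summit after TNFα and 0 after TWEAK, which allows no comparison.

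**Figure D2:**
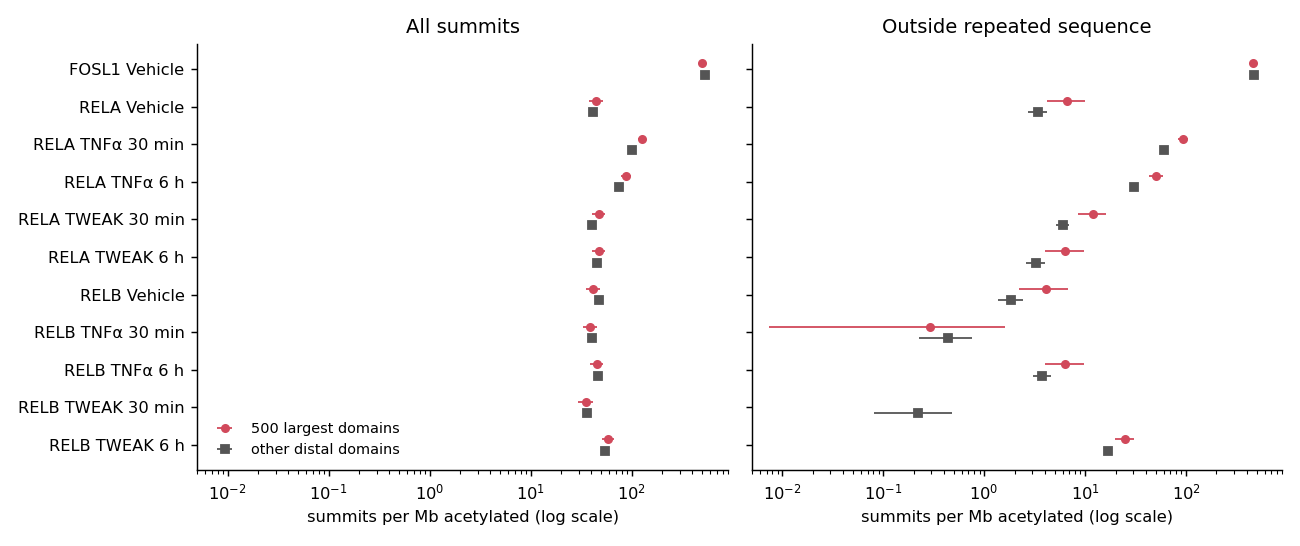
Summits per Mb of vehicle-acetylated distal sequence (log axis) in the 500 domains and in the other distal domains for the 11 factor lists, over all summits (left) and outside repeated sequence (right); bars are 95% Poisson intervals, and a density of 0 is not drawn. Left, the RELA lists of vehicle and TWEAK and the 5 RELB lists sit between 35.3 and 58.5 per Mb in the 500 domains, and right, RELA at 30 min TNFα stands at 93.6 against 60.5 per Mb.

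The higher RELA density was not particular to the 500 domains. By rank, RELA density at 30 min TNFα outside repeated sequence was 92.5 per Mb in ranks 1 to 100 (Poisson interval 75.2 to 113), 96.6 in ranks 101 to 250, 92.1 in ranks 251 to 500 and 97.2 in the next 500 (84.4 to 111). It then fell to 79.9 in ranks 1001 to 2500, 66.4 in ranks 2501 to 5000, 61.8 in ranks 5001 to 10000 and 37.7 in ranks 10001 to 26434 (33.8 to 42.0). Against the next 500 domains alone, the 500 domains had a ratio of 0.963 (0.807 to 1.15, exact p = 0.688). RELA at 6 h TNFα and RELB at 6 h TWEAK fell in the same order over the smaller ranks, to 18.3 and 8.40 per Mb in the smallest domains, with ratios against the next 500 of 1.02 (0.795 to 1.31) and 0.874 (0.623 to 1.23). FOSL1 stayed between 448 and 534 per Mb over the 7 larger rank classes and was 404 per Mb in the smallest.

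**Figure D3:**
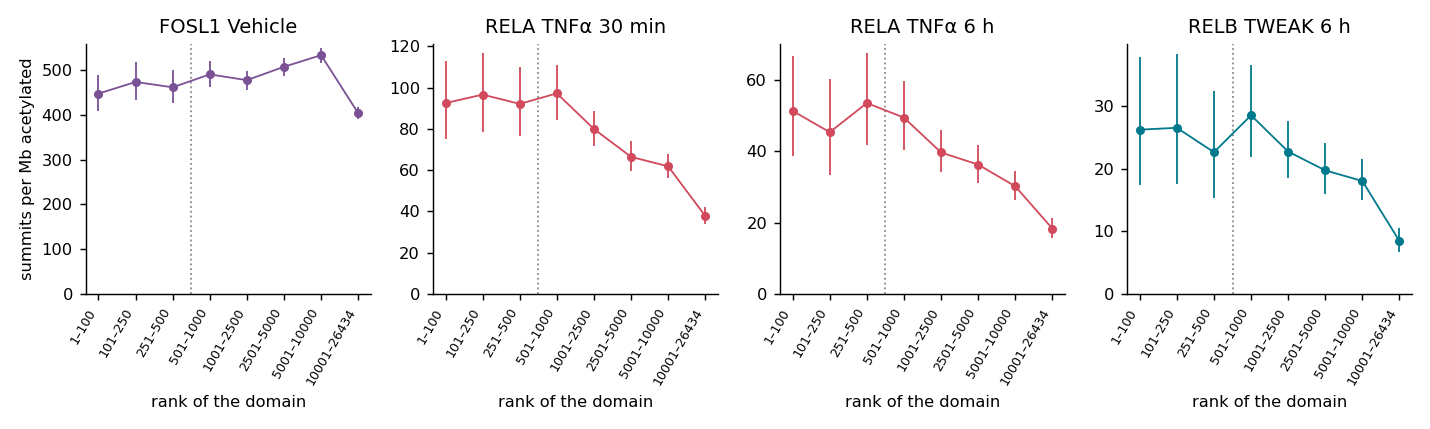
Factor summits per Mb of vehicle-acetylated distal sequence outside repeated sequence by rank of the domain for FOSL1, RELA at 30 min and 6 h TNFα and RELB at 6 h TWEAK; points are densities, bars 95% Poisson intervals, and the dotted line marks rank 500. RELA density is level at 92.1 to 97.2 per Mb down to rank 1000 and falls to 37.7 per Mb in the smallest domains.

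Peak length moved with this difference. Within acetylated peaks of 1 to 2 kb outside repeated sequence, RELA at 30 min TNFα had 97.3 summits per Mb in the 500 domains and 75.5 in the others (ratio 1.29, 1.09 to 1.52, exact p = 0.00341). In peaks of 2 to 4 kb the densities were 143 and 116 per Mb (ratio 1.24, 0.985 to 1.55, exact p = 0.0619), so the ratio shrank when like lengths were compared. For RELB at 6 h TWEAK the ratio was 0.789 (0.283 to 1.78) in peaks of up to 1 kb. It was 1.19 (0.840 to 1.64) at 1 to 2 kb and 1.32 (0.860 to 1.99) at 2 to 4 kb, each interval including 1. FOSL1 was less dense in the 500 domains in peaks of up to 1 kb, at 235 against 308 per Mb. The FOSL1 ratio there was 0.763 (0.663 to 0.875, exact p = 6.48e-05). At 1 to 2 kb it was 0.909 (0.849 to 0.973, exact p = 0.00581). At 2 to 4 kb it was 0.958 (0.857 to 1.07, exact p = 0.457). The longest peak of each domain held 28.4% of the acetylated length outside repeated sequence, 34.3% of the FOSL1 summits, 42.4% of the RELA summits at 30 min TNFα, 46.6% of those at 6 h and 44.2% of the RELB summits at 6 h TWEAK.

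Counted by domain, RELA outside repeated sequence was found in the span of 308 of the 500 domains (61.6%, 57.2 to 65.9) after 30 min TNFα, where all domains gave 8.83% and the next 500 gave 45.8%. The corresponding counts were 202 domains at 6 h TNFα (all domains 4.78%), 52 at 30 min TWEAK (all domains 1.00%), 35 at 6 h TWEAK (all domains 0.552%) and 32 in vehicle (all domains 0.567%). RELB was found in 115 domains at 6 h TWEAK (all domains 2.73%), 32 at 6 h TNFα (0.636%), 22 in vehicle (0.333%), 5 at 30 min TNFα (0.0681%) and 1 at 30 min TWEAK (0.0227%). These shares rise with span and are no measure of preference. Of the 115 domains with RELB at 6 h TWEAK, 106 also held RELA at 30 min TNFα, and of the 202 with RELA at 6 h TNFα, 189 held it at 30 min. By combination, 106 domains held FOSL1, RELA at 30 min TNFα and RELB at 6 h TWEAK, 201 held FOSL1 and RELA without RELB, 157 held FOSL1 alone of the 3, and 26 held none, 25 of them in repeated sequence.

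Summit by summit, RELA in the large domains sat on FOSL1. Of the 323 RELA summits at 30 min TNFα, 82.4% (77.7 to 86.4) had a peak that overlapped a basal FOSL1 peak, against 75.5% (73.4 to 77.6) of the 1655 in other domains, and the median distance between RELA and FOSL1 summits was 101 and 109 bp. Among acetylated peaks of the domains outside repeated sequence, 43.7% of 3166 held a FOSL1 summit and 9.63% a RELA summit at 30 min TNFα. RELA was found in 18.3% of the peaks with FOSL1 and in 2.92% of those without, where the other domains gave 10.6% and 1.65%. Of the 323 RELA summits, 45.8% (40.3 to 51.4) also had a RELA peak at 6 h TNFα, 12.4% at 30 min TWEAK and 7.12% in vehicle, and 22.3% had RELB at 6 h TWEAK. The shares in other domains were 42.4%, 9.91%, 5.50% and 23.1%, each within the interval of the large domains. Of the 86 RELB summits at 6 h TWEAK, 87.2% (78.3 to 93.4) overlapped FOSL1, 83.7% RELA at 30 min TNFα and 89.5% (81.1 to 95.1) RELA at 6 h TNFα, against 78.4%, 83.0% and 80.2% of the 459 in other domains. Not all binding was in acetylated peaks: 38.5% of the RELA summits in the spans at 30 min TNFα (210 of 546) and 34.0% of the FOSL1 summits lay between the vehicle peaks.

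The motifs under the summits were counted in and outside the domains. Outside repeated sequence, the AP-1 motif TGANTCA, which reads the same way on both strands, was within 200 bp windows of 52.2% of the 1592 FOSL1 summits in the domains (49.7 to 54.7) and 56.1% elsewhere (55.3 to 57.0), against 15.4% and 16.3% of windows at the centres of the acetylated peaks. The strict NF-κB consensus was in 27.2% of the RELA windows at 30 min TNFα in the domains (22.5 to 32.4) and 34.0% elsewhere (31.7 to 36.3), and in 46.5% (35.7 to 57.6) and 59.9% (55.3 to 64.4) of the RELB windows at 6 h TWEAK. At the centres of acetylated peaks it was in 2.56% and 2.5%. These differences were not tested. The AP-1 motif was in 32.2% of RELA windows of the domains and 28.3% elsewhere. The TEAD core CATTCC, the RUNX core TGTGGTT and the forkhead core TGTTTAC were searched as well; at RELA summits they were in 20.7%, 5.57% and 3.41% of windows, and in 17.9%, 5.98% and 3.99% elsewhere. A match is a description of the letters in the window and not a test of binding.

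Several of the largest domains of unique sequence lay apart from protein-coding starts, as the choice of distal peaks favours, but those of EXT1 and MYEOV hold a start. The second largest, 22 kb of acetylation in 17 peaks over 138 kb, had MYC, the proto-oncogenic transcription factor, as its nearest protein-coding start at 56.4 kb. It held 11 FOSL1 summits outside repeated sequence, 4 RELA summits at 30 min and 2 at 6 h TNFα, 0 after TWEAK or in vehicle, and 1 RELB summit at 6 h TWEAK. Its H3K27ac, counted under all peaks in the span including those at starts, covered 22 kb in vehicle, 15.9 and 20.9 kb after 30 min and 6 h TNFα, and 19.5 and 16.9 kb after TWEAK, so it was shortest at 30 min TNFα. The domain at chr1:209341994-209432360, with CAMK1G 151 kb away, held 22 kb in 20 peaks and 14 FOSL1 summits but 1 RELA summit at 30 min and 2 at 6 h TNFα. The domain that holds a start of EXT1, a heparan sulfate polymerase, had 15 FOSL1 summits, 2 RELA summits at 30 min and 1 at 6 h TNFα.

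RELA was most numerous in the MYEOV domain, chr11:69274321-69383085, the fifth largest. MYEOV was named for its overexpression in myeloma, and its start lies in the domain. Of the domains outside repeated sequence it held the most RELA summits, 9 at 30 min and 8 at 6 h TNFα against 0 in vehicle, with 0 and 1 at 30 min and 6 h TWEAK, beside 18 FOSL1 summits. RELB was called there 0 times in vehicle, 1 time at each time of TNFα and 3 times at 6 h TWEAK. H3K27ac covered 22.8 kb in vehicle, 21.5 and 23.3 kb after 30 min and 6 h TNFα, and 20.6 and 20.1 kb after TWEAK, nearly level over the 5 lists. At 8.20 kb to the left of its centre a RELA summit at 30 min TNFα with a fold enrichment of 5.86 lay where vehicle had no H3K27ac peak, and a peak with a fold enrichment of 2.58 was called there at 30 min TNFα. In the other 3 treated lists a shorter peak lay just to the right of the summit.

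**Figure D4:**
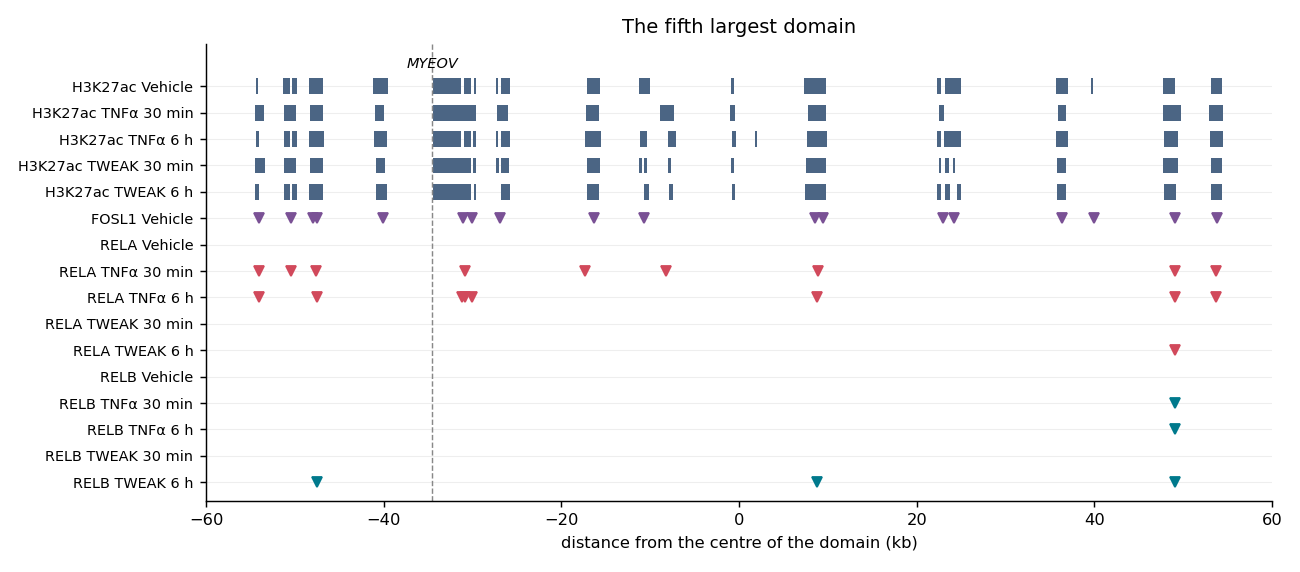
The MYEOV domain by distance from its centre in kb: bars are H3K27ac peaks of the 5 conditions, triangles are FOSL1, RELA and RELB summits, and the dashed line is the MYEOV start. The 9 RELA summits at 30 min TNFα and 8 at 6 h face an empty vehicle row, and the 18 FOSL1 summits run along the whole domain.

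Other domains were rich in RELA outside repeated sequence. The domain at chr11:102242395-102324213 holds a start of BIRC3 (cIAP2), an inhibitor of apoptosis in TNF receptor signalling, and lies 23 kb from BIRC2 (cIAP1). It had 6 RELA summits at 30 min and 3 at 6 h TNFα, 1 each in vehicle and at both times of TWEAK, 1 RELB summit each in vehicle and at 30 min TNFα, 2 at each ligand's 6 h, and 13 FOSL1 summits. H3K27ac covered 15.7 kb in vehicle, 12.7 and 15.6 kb after TNFα and 13.7 and 13.5 kb after TWEAK. The BRME1 and NANOS3 domain, chr19:13839294-13899846, held 6 RELA summits at 30 min and 4 at 6 h TNFα and 2 RELB summits at 6 h TWEAK. The DLGAP1 domain, chr18:3583216-3626559, held 5 and 3 RELA summits at 30 min and 6 h TNFα and 3 RELB summits at 6 h TWEAK, and the RAD51B domain, chr14:68547000-68612227, held 5 and 5 RELA summits and 0 RELB summits. Next to BHLHE40, a circadian and stress-responsive repressor 3.87 kb away, the domain chr3:4983308-5027022 held 4 RELA summits at 30 min TNFα and 3 RELB summits at 6 h TWEAK, and its H3K27ac length was 9.62 kb in vehicle and 10.3, 10.4, 9.60 and 9.63 kb after the treatments.

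Few genes start in the domains, which were built from distal peaks, and 99 domains lay more than 100 kb from any protein-coding start. A protein-coding start lay in the span of 43 domains, 267 domains (53.4%) overlapped a protein-coding gene, and the median distance to the nearest start was 25.3 kb. Within 50 kb of the 500 domains lay starts of 500 of 19618 protein-coding genes, or 2.55%, and within 50 kb of the next 500 domains those of 509. That 2.55% is the background for the gene lists. Of 25 keratin and epithelial junction genes, 6 were linked (CLDN1, KRT7, KRT16, KRT17, KRT80 and PKP2), of 30 lineage transcription factors of pancreatic cancer 5 (ETS2, FOXA1, GRHL2, KLF6 and TP63), and of 18 YAP and TEAD pathway genes 3 (TEAD1, WWTR1 and YAP1). The NF-κB subunits and feedback regulators gave 3 of 25 (BCL3, BIRC2 and BIRC3), the chemokines and cytokines 2 of 25 (CXCL8 and LIF), the AP-1 family 1 of 11 (FOSL2) and the EGFR family and ligands 1 of 11 (EGFR). No gene was linked of 10 EMT factors and mesenchymal markers, 13 matrix metalloproteinase and urokinase genes, 16 acinar and endocrine, 13 leukocyte and 10 fibroblast markers, and 1 of 8 endothelial markers was (PECAM1, 45.1 kb away). Of 10 ductal and epithelial markers 1 was linked, KRT7. KRT16 and KRT17 were linked to the same domain, as were KRT7 and KRT80, and BIRC2 and BIRC3, so neighbouring genes are not independent links. The lists are short and were not tested. A link is a distance and not a shown target.

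Binding beside single epithelial and signalling genes varied. The CLDN1 domain, next to a tight junction gene, had 5 RELA summits at 30 min and 1 at 6 h TNFα, and the ITGB6 domain, next to the β6 integrin subunit of epithelia, 5 and 2. The KLF6 domain had 3 RELA summits at each time of TNFα and 2 RELB summits at 6 h TWEAK, and its H3K27ac went from 7.57 kb in vehicle to 6.24 kb at 30 min and 9.46 kb at 6 h TNFα. The FOXA1 domain, next to a pioneer factor of epithelial lineages, had 1 RELA summit at 30 min and 0 at 6 h TNFα, and its H3K27ac covered 7.38 kb in vehicle, 3.92 and 6.87 kb after TNFα and 4.84 and 5.56 kb after TWEAK. The ITGA3 domain, which holds a start of the laminin-binding α3 integrin, had 2 and 1 RELA summits at 30 min and 6 h TNFα and 2 RELB summits at 6 h TWEAK. A domain 31.7 kb from CXCL8, the neutrophil chemokine gene, had RASSF6 as its nearest protein-coding start, at 29.0 kb. It held 2 and 1 RELA summits at 30 min and 6 h TNFα and 0 RELB summits. Its H3K27ac covered 12.2 kb in vehicle, 8.69 and 12.4 kb after 30 min and 6 h TNFα, and 9.06 and 10.5 kb after TWEAK. WWTR1 and YAP1, the TAZ and YAP coactivators, each lay beside a domain with 5 FOSL1 summits and 0 RELA summits at 30 min TNFα.

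After treatment the domains' acetylated length was shorter than in vehicle in most cases. The median length relative to vehicle was 0.805 after 30 min TNFα (quartiles 0.684 and 0.921), 0.951 after 6 h TNFα (0.895 and 1.00), 0.854 after 30 min TWEAK (0.745 and 0.951) and 0.826 after 6 h TWEAK (0.766 and 0.892). These ratios carry no test, because the domains were chosen for their length in vehicle, which alone favours ratios below 1. The lists' total lengths moved with them: relative to vehicle they were 0.813, 1.00, 0.845 and 0.837 in the same order. The part of list size in the domains' values was not tested. Other distal domains had lower medians, 0.603, 0.846, 0.660 and 0.694. At 30 min TNFα 28.3% of them had no H3K27ac peak called, where 0 of the 500 did. Of these other domains, 66.6% were a single peak, against 0 of the 500, so 1 peak not called could leave no length. The shares without a peak are therefore not alike by construction. The next 500 domains were close to the 500, with medians of 0.784, 0.943, 0.833 and 0.814.

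The counts follow the same order. At 30 min TNFα, 246 of the 500 domains had at most 0.8 times the vehicle length (all domains 68.2%) and 14 at least 1.1 times (all domains 2.32%). At 6 h TNFα the counts were 25 shorter (43.4%) and 27 longer (4.54%), at 30 min TWEAK 186 shorter (63.9%) and 19 longer (2.41%), and at 6 h TWEAK 186 shorter (62.7%) and 1 longer (0.840%), with the share of all domains in brackets. The fold enrichment of the peaks was highest in the lists with the shortest domains: its median over the domains, weighted by peak length, was 2.68 in vehicle, 2.82 and 2.65 after 30 min and 6 h TNFα and 2.79 and 2.82 after TWEAK. Built anew from each treated list by the same rule, the 500 largest domains overlapped 333 of the vehicle's 500 at 30 min TNFα (66.6%, 62.3 to 70.7), 396 at 6 h TNFα (79.2%), 354 at 30 min TWEAK (70.8%) and 392 at 6 h TWEAK (78.4%).

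The 2 ligands can be set side by side without the vehicle list. The background here is the domains with H3K27ac after TWEAK at that time, since the others have no ratio. At 30 min, H3K27ac was longer after TNFα than after TWEAK in 155 of the 500 domains (35.9% of 19930 in the background). The median ratio was 0.946 where the 2 lists' total lengths gave 0.963. At 6 h H3K27ac was longer after TNFα in 452 of the 500 domains (68.4% of 21403 in the background). The median ratio was 1.14 with quartiles of 1.07 and 1.23, where the lists' totals gave 1.19. The domains' medians were therefore close to the ratio of the whole lists at both times, and with 1 list per condition a difference in list depth and a difference between ligands cannot be told apart.

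Domains with more RELA summits had a greater H3K27ac peak length relative to vehicle. Among the 468 domains outside repeated sequence, the median H3K27ac length at 30 min TNFα relative to vehicle was 0.703 in the 162 with no RELA summit at 30 min TNFα, 0.827 in the 246 with 1 or 2 and 0.944 in the 60 with 3 or more. The same order held after 30 min TWEAK (0.783, 0.861 and 0.934), 6 h TNFα (0.924, 0.959 and 0.985) and 6 h TWEAK (0.808, 0.824 and 0.871), where RELA was rarely called after TWEAK. The ratio of TNFα to TWEAK at 30 min, which leaves out the vehicle list, went from 0.918 to 0.946 and 0.989, and at 6 h it was 1.15, 1.14 and 1.14. Domain size moved with the RELA classes, with median summed lengths of 6.05, 6.91 and 7.99 kb, and its part was not tested. The other domains gave the same order at 30 min TNFα, 0.537, 0.899 and 1.02, the last in 24 domains. Other factors were read the same way, but their classes overlap those of RELA. Of the 115 domains with RELB at 6 h TWEAK, 106 also held RELA at 30 min TNFα. At 30 min TNFα the median was 0.779 in the 354 domains with 0 RELB summits at 6 h TWEAK. It was 0.847 in the 110 with 1 or 2. By FOSL1 it was 0.778 in the 29 domains with 1 or 2 summits (quartiles 0.670 and 0.905). With 3 or more, in 437 domains, it was 0.803 (0.684 and 0.915). In the other domains it was 0.281, 0.687 and 0.742 with 0, 1 or 2, and 3 or more FOSL1 summits. Their median summed lengths were 0.517, 1.38 and 3.45 kb in the same order. The parts of RELA and of domain size in these values were not tested.

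**Figure D5:**
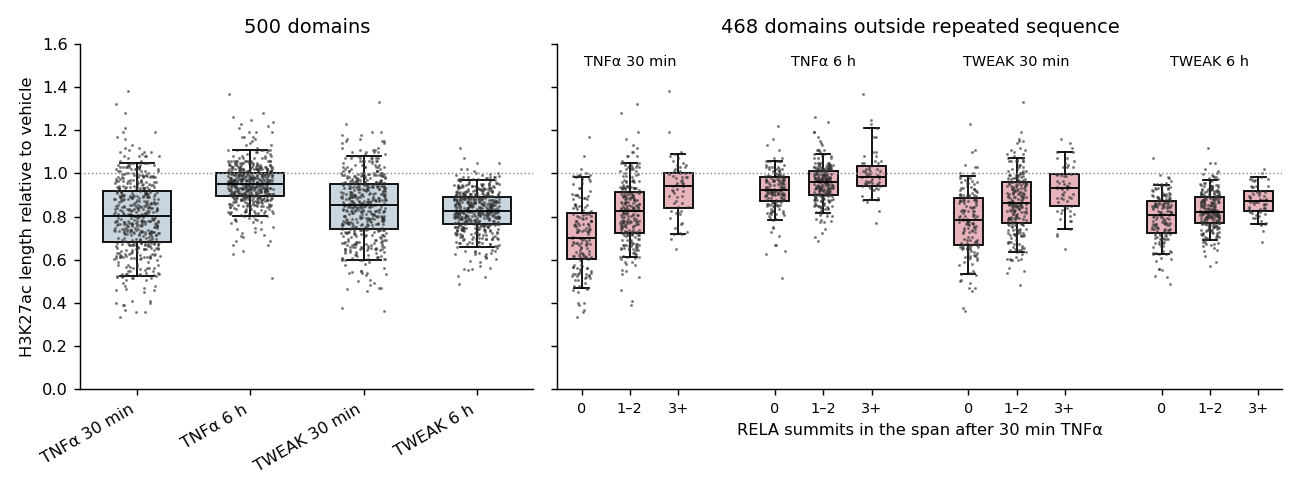
H3K27ac length after each treatment relative to vehicle, over the 500 domains (left) and by the number of RELA summits at 30 min TNFα in the 468 domains outside repeated sequence (right); points are domains, boxes quartiles with the median, and whiskers the 5th and 95th percentiles. Medians at 30 min TNFα climb from 0.703 to 0.944 with more RELA summits, and they climb after TWEAK as well.

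Single sites were followed as well. Of the 336 RELA summits at 30 min TNFα that lay in a vehicle H3K27ac peak within the spans, 89.9% (86.1 to 92.9) were in an H3K27ac peak at 30 min TNFα and 90.5% (86.8 to 93.4) at 30 min TWEAK. For the 1279 FOSL1 summits with no RELA peak within 1 kb the shares were 77.1% (74.7 to 79.4) and 81.3% (79.1 to 83.4). At 6 h they were 86.0% (81.8 to 89.5) at RELA and 84.4% (82.3 to 86.3) at FOSL1 after TNFα, and 81.0% (76.3 to 85.0) and 73.0% (70.5 to 75.4) after TWEAK. Of the 210 RELA summits between vehicle peaks, 44 (21.0%, 15.7 to 27.1) were in an H3K27ac peak at 30 min TNFα, 16 at 6 h TNFα, 35 at 30 min TWEAK and 2 at 6 h TWEAK. The 667 FOSL1 summits of the same kind gave 23.8% (20.7 to 27.3), 14.8%, 18.6% and 7.50% in the same order, with intervals at 30 min TNFα that overlap those of RELA.

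The domains with the longest H3K27ac at 30 min TNFα relative to vehicle lay in SLCO3A1, an organic anion transporter gene, at 1.38, in AHRR, the aryl hydrocarbon receptor repressor, at 1.32, beside TFAP2A, an AP-2 transcription factor, at 1.28, in repeated sequence near SPDYE10 at 1.21 and in TMC1 at 1.19. The SLCO3A1 domain, chr15:91940855-91974332, covered 6.02 kb in vehicle, 8.34 and 8.26 kb after 30 min and 6 h TNFα, and 6.85 and 5.83 kb after TWEAK, so it was longer than vehicle at both times of TNFα. It held 2 RELA summits in vehicle, 4 and 3 at 30 min and 6 h TNFα and 2 RELB summits at 6 h TWEAK. The AHRR domain covered 6.29 kb in vehicle, 8.27 and 7.38 kb after TNFα and 7.49 and 5.17 kb after TWEAK, with 2 RELA summits outside repeated sequence. The shortest lay in ACOT7 at 0.334, in repeated sequence near PLGLB1 at 0.357, 367 kb from THBS1 at 0.359, in RERG at 0.368 and in ABCC5 at 0.390. Of these 5, RELA at 30 min TNFα was called in the ABCC5 domain alone, 1 time. Their H3K27ac was short at 30 min TWEAK as well, at 0.470, 0.466, 0.618, 0.539 and 0.539 of vehicle. At 6 h TNFα it was at 0.960, 0.687, 0.963, 0.730 and 0.901. These 5 were picked as the shortest at 30 min TNFα, which alone favours longer values in other lists. The whole lists were at 0.813 of vehicle at 30 min and 1.00 at 6 h TNFα.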

How the data were processed

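ChIP-seq of RELA, RELB, H3K27ac and FOSL1 in L3.6pl cells was analysed from 16 deposited peak lists. Per the labels and methods, the authors aligned to hg38 (Bowtie2 2.5.0), used SAMtools 1.18 and deepTools 3.3.2, merged the replicates of a condition and called peaks against input with MACS2 (version not given in the sources used here). Whether all 3 replicates entered the RELA list at 30 min TNFα is not settled. No blacklist is named. The deposited fold enrichment is the authors' ratio of ChIP over input and the deposited −log10 q their significance, averaged over the peak in broad lists. Own code (Python 3.11.15, numpy 2.4.6, scipy 1.17.1, pysam 0.24.0) kept chromosomes 1 to 22 and X, took starts from GENCODE 44, stitched domains, and counted a factor peak by its summit. Densities over vehicle-acetylated length were compared by exact conditional binomial tests and adjusted by Benjamini-Hochberg over 11 lists. Length of H3K27ac in a domain is all sequence of its span under peaks. Tandem repeats were 1000 bp windows with at least 0.4 of bases equal to themselves after a shift of up to 400 bp. The NF-κB consensus was searched in a strict and a looser form. Stitching, counting and tests were tested on simulated data. Named domains were the 10 largest, the 5 with most RELA at 30 min TNFα and most RELB at 6 h TWEAK (also counted outside repeats, added later), the 5 with the highest and lowest H3K27ac at 30 min TNFα, and those with listed genes. Members and lists were chosen with earlier results of these data known. The result of 1 further gene list is not reported here.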

Additional observations from a re-analysis of the deposited data

How the results depend on the processing

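No paired analysis was possible because each condition has 1 peak list of merged replicates, and for the same reason no replicate could be left out. Depth is unknown, so lists of different length may differ in sensitivity. Of 144 alternatives, 106 kept direction and side of the threshold (or stayed within the spread for values without a test) and 38 did not. Values are density ratios of the 500 domains to the others over all summits unless said otherwise. For FOSL1 (0.918) the ratio was 1.05 without stitching, 0.985 when domains were ranked by length times fold and 0.965 in peaks of 2 to 4 kb. Counted over the whole span, the ratios were 0.959 for RELA at 30 min and 0.881 at 6 h TNFα and 0.744 for RELB at 6 h TWEAK; acetylated peaks fill 33.3% of the span of the other domains and 20.2% of the large ones. With factor fold enrichment of at least 5 they were 0.991, 0.789 and 0.687, and the same limit outside repeated sequence gave 1.44 for RELB. The 1000 largest domains gave 1.05 for RELA at 6 h TNFα and 0.929 for RELB, a vehicle q of at most 0.001 gave 1.1 for the former, and for RELB the 250 largest gave 1.26, a stitching gap of 5 kb 1.45, sequence outside tandem repeats 1.36 and peaks of 2 to 4 kb 1.82. Further alternatives were chosen after seeing the data. Outside repeated sequence FOSL1 gave 0.972 and RELB 1.49; with repeats left out before stitching 0.983 and 1.49; in peaks of 2 to 4 kb FOSL1 gave 0.958 and RELA at 30 min 1.24; over the whole span RELB gave 0.991. Against the next 500 domains in size the ratios were 0.939 (FOSL1), 0.963 and 1.02 (RELA at 30 min and 6 h TNFα) and 0.874 (RELB). A stitching gap of 5 kb moved the median H3K27ac length relative to vehicle to 0.838, 0.887 and 0.857 in 3 of 4 lists, and TNFα relative to TWEAK to 0.961 at 30 min and 1.1 at 6 h. With repeats left out of the vehicle list alone, 73.6% and 73.4% of domains were among the largest at 6 h TNFα and TWEAK. Genes linked numbered 46 by a start in the span and 871 within 100 kb. In 100 bp windows 47.3% of FOSL1 summits held the AP-1 motif. Beyond the spans' construction, the cause was not tested.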

Other observations

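Some domains were among the 500 largest in a treated list but not in vehicle. Of the 166 domains built from the list at 30 min TNFα that overlapped none of the vehicle's 500, 91 lay at vehicle ranks up to 1000, and 107 (64.5%) held RELA at 30 min TNFα outside repeated sequence. The same RELA list, that of 30 min TNFα, was counted for the other treated lists. At 6 h TNFα there were 103 such domains and 71 of them (68.9%) held this RELA. At 30 min TWEAK the counts were 143 and 79 (55.2%), and at 6 h TWEAK 102 and 54 (52.9%). The share was 61.6% in the vehicle's 500, 45.8% in the next 500 and 8.83% in all domains. Among the largest at 30 min TNFα were a domain with a start of EPHA2, an ephrin receptor, whose H3K27ac went from 10.8 to 12.9 kb with 6 RELA summits, and a domain with a start of DUSP1, a MAP kinase phosphatase, from 8.70 to 11.9 kb with 2. A domain 3.3 kb from KYNU, a kynurenine pathway enzyme, went from 7.84 to 9.57 kb with 3 RELA summits, and one with a start of SMAD3 from 7.24 to 8.10 kb with 5 RELA summits and 5 RELB summits at 6 h TWEAK. In spans built from the list at 30 min TWEAK, the DUSP1 and SMAD3 domains were longer than in vehicle too, at 11.5 and 8.28 kb. These domains were named after their values were seen. Their spans were chosen for length in a treated list, which alone favours treated lengths above vehicle. Treated lists were not screened for repeats, and the largest such domain, chr10:40705358-40848594, lies 1746 kb from the nearest protein-coding start.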
